A study of Mus musculus with 15 samples.

Results

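Tex19.1 and Riiad1 are 2 of the 45808 rows of the cecal expression table, found by their symbols. FPKM are fragments scaled for exon length and for sequencing depth, a level per length. The 2 genes were chosen by their FPKM, which was near 0 in the AIMD mice and several FPKM or more in every vehicle-treated mouse. Their difference between the groups is therefore given as a description, with no test. The study asked what antibiotic-induced microbiome depletion (AIMD) does to the host. The AIMD group held 7 wild-type C57BL/6 mice gavaged 2 times a day for 30 days with vancomycin, neomycin, metronidazole, ampicillin and the antifungal amphotericin B, and the vehicle group held 8 wild-type C57BL/6 mice gavaged with water on the same schedule. The labels give all 15 mice an age of 20 weeks. Whole emptied ceca were used, so epithelium, muscle, nerve and immune cells contributed to each library, and fewer cells of a type and less RNA per cell cannot be told apart. Cages and times of sacrifice of single mice were not given in the sources used here.

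Tex19.1 encodes a protein of placental mammals that is best known from male and female germ cells, embryonic stem cells and placenta. It restrains retrotransposons, binds the ubiquitin ligase UBR2 of the N-end rule pathway, and is needed for meiosis in spermatocytes. In most somatic tissues its promoter is methylated and the gene is silent. Riiad1 encodes a small protein named for a domain like the docking and dimerization part of the regulatory subunits of protein kinase A, by which those subunits are held by A-kinase anchoring proteins. That fold is also found in proteins of sperm tails and cilia.

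Tex19.1 (ENSMUSG00000039329.8) lies on the forward strand of chromosome 11 at chr11:121146143-121148319 in GRCm38. Its exons cover 1872 bases in GENCODE M21, the main transcript has 3 exons, only the last of them holds coding sequence, and no annotated gene overlaps it. Its rodent paralog Tex19.2 (ENSMUSG00000039337.3) lies 27465 bases away on the reverse strand, at chr11:121116215-121118677. The coding sequences, 1056 and 954 bases with the stop codon, were identical at 731 of 948 aligned bases (77.1%). The longest stretch of coding sequence shared without a mismatch, shown because reads within it cannot be told apart between the paralogs, was 69 bases at chr11:121147208-121147276.

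Tex19.1 and Tex19.2, shared coding run: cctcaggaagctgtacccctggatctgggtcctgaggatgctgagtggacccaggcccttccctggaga

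Of the 1870 windows of 50 bases, the read length, in Tex19.1 transcripts, 50 (2.67%) were also found in Tex19.2, and none in any other gene. Tex19.2 itself was at 0 FPKM in 11 of the 15 mice and reached at most 0.198 FPKM.

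The 250 bases upstream of the RefSeq start of each paralog (GRCm38.p6) are shown because the paralogs differed in level and their promoters differ in CpG content. Capitals in the Tex19.1 promoter mark the only match to the letters TCCCGC on either strand, the core of sites bound by E2F factors, read there as GCGGGA and starting 33 bases before the start of transcription.

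Tex19.1, chr11:121145893-121146142, forward strand: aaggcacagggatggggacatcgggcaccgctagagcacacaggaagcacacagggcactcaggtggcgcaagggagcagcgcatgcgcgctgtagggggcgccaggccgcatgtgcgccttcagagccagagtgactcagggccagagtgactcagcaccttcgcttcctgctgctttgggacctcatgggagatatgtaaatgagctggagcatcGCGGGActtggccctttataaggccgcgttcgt
Tex19.2, chr11:121118678-121118927, reverse strand: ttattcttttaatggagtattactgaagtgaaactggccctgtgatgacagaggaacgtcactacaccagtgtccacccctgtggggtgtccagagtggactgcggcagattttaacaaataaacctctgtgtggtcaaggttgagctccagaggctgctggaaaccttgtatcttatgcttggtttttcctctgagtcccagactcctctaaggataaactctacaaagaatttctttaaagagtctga

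The Tex19.1 window holds 15 CpG sites and 61.6% G or C, and 72.7% of 32851 mouse promoter windows of this length hold fewer CpG sites. The Tex19.2 window holds 2 CpG sites and 44.4% G or C, with 18.8% of windows holding fewer, against a median of 6 over all windows. TCCCGC, searched on both strands, occurs in 16.9% of all windows. An E-box (CACGTG, in 6.02% of windows) and a cyclic AMP response element (TGACGTCA, in 1.55%) were searched in the same way and are in neither window. These matches describe letters and not bound sites.

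Riiad1 (ENSMUSG00000028139.5) lies on the reverse strand of chromosome 3 at chr3:94464983-94480341, with 813 exon bases. Its coding transcript has 7 exons, 5 of them with coding sequence, and a coding length of 360 bases with the stop codon. None of its 760 windows of 50 bases is shared with another gene. The far 5′ end of the gene overlaps Celf3, a neuronal RNA-binding protein gene on the opposite strand, over 2047 bases, and 74 exon bases of Riiad1 overlap exons of Celf3, all of them in exon 1 of a transcript without coding sequence (Riiad1-202). The libraries kept strand, but whether strand was used in the counting is not given in the sources used here. Celf3 averaged 0.343 FPKM in vehicle-treated mice and 0.0980 FPKM in AIMD mice, far below the vehicle level of Riiad1.

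In the 8 vehicle-treated mice, Tex19.1 stood at 11.9, 3.32, 9.59, 2.40, 5.07, 4.83, 13.6 and 5.25 FPKM in replicates 1 to 8. In the 7 AIMD mice it stood at 0.428, 0.356, 0.450, 0.385, 0.279, 0.0813 and 0.325 FPKM in replicates 1 to 7. The lowest vehicle-treated mouse was 5.33 times the highest AIMD mouse, so the groups did not overlap. The means were 7.00 ± 4.16 FPKM (SD, n = 8) and 0.329 ± 0.124 FPKM (SD, n = 7), a ratio of 21.3. On the scale of log2(FPKM + 0.5), which understates changes of low genes, the difference of AIMD minus vehicle was -2.99 (SE 0.29, limma fit over all genes).

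Riiad1 stood at 19.6, 11.8, 9.30, 5.75, 6.20, 3.70, 5.07 and 2.81 FPKM in vehicle replicates 1 to 8. It stood at 0.845, 0.308, 0.194, 0.295, 0.183, 0.374 and 0.320 FPKM in AIMD replicates 1 to 7. The groups did not overlap here either, the lowest vehicle-treated mouse being 3.33 times AIMD replicate 1, which was well above the other AIMD mice. The means were 8.03 ± 5.51 FPKM (SD, n = 8) and 0.360 ± 0.224 FPKM (SD, n = 7), a ratio of 22.3, and the difference on the log2 scale was -3.11 (SE 0.30). Among 11983 genes tested, 395 (3.30%) were lower in AIMD without overlap between the groups, and 1997 (16.7%) were called lower at an adjusted p under 0.05. Riiad1 and Tex19.1 had the fifth and the sixth deepest fall among these genes, which restates how they were chosen.

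**Figure D1:**
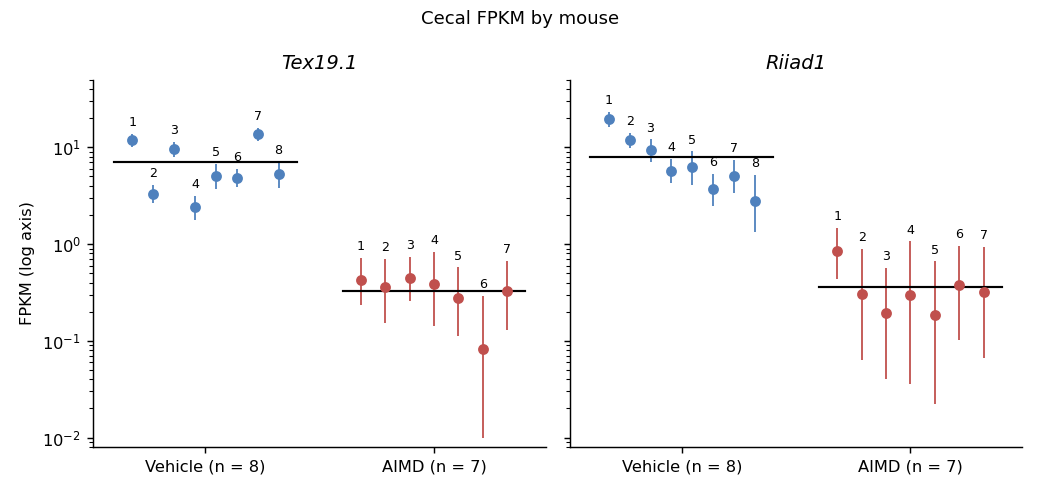
FPKM of Tex19.1 and Riiad1 in each mouse, on a log axis, by group. Points carry the replicate number and exact Poisson 95% intervals for counting error, and lines mark group means. All AIMD mice lie below all vehicle-treated mice, with means of 0.329 against 7.00 FPKM for Tex19.1 and 0.360 against 8.03 FPKM for Riiad1.

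The low level in AIMD mice was not 0. Whole read counts could be recovered from the FPKM, and every AIMD mouse had between 2 and 16 reads on Tex19.1 and between 2 and 12 on Riiad1. Vehicle-treated mice had 43 to 167 and 10 to 130 reads. Summed within groups, 60 AIMD reads stood against 774 vehicle reads for Tex19.1, and 29 against 446 for Riiad1. Scaled for depth, the vehicle level was 18.9 times the AIMD level for Tex19.1 (95% interval 14.5 to 24.99) and 22.5 times for Riiad1 (15.5 to 34.0), with exact intervals that cover counting error only. AIMD libraries held 8676372 to 18102757 reads on genes and vehicle libraries 4370767 to 14402057, ranges that overlap. In AIMD replicate 6 the 2 reads on Tex19.1 allowed 0.00985 to 0.294 FPKM. Tex19.1 passed the filter of 0.5 FPKM in at least 7 mice through the 8 vehicle-treated mice alone, and Riiad1 through these and AIMD replicate 1.

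In the water-gavaged cecum, the mean level of Tex19.1 was above that of 59.8% of the genes tested and that of Riiad1 above 62.9%. Both varied widely among vehicle-treated mice. The highest was 5.68 times the lowest for Tex19.1 and 6.97 times for Riiad1. The SD of log2(FPKM + 0.5) was 0.81 and 0.85, larger than in 96.5% and 97.0% of the genes tested.

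The order of the mice differed between the genes. Replicates 1 and 3 were among the 3 highest for both. Tex19.1 was highest in vehicle replicate 7, where Riiad1 was below its median, and Riiad1 was next to its highest in replicate 2, where Tex19.1 was next to its lowest. Among the 8 vehicle-treated mice Pearson's r of the log2 values was 0.28 (exact permutation p = 0.505, two-sided, adjusted p = 0.884 over 7 relations) and Spearman's rho was 0.07 (exact permutation p = 0.882, adjusted p = 0.882). Without the 2 mice farthest from the median of Tex19.1, r was 0.02. Among the 7 AIMD mice r was 0.09 (exact permutation p = 0.804). A relation within the groups was not detectable with this number of mice.

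**Figure D2:**
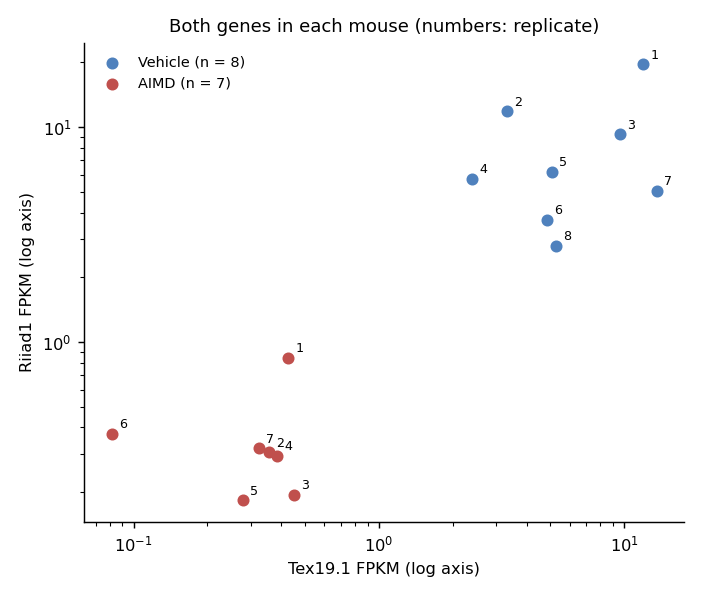
Riiad1 against Tex19.1 FPKM in each mouse, both on log axes, with replicate numbers. The groups form separate clouds, and within the 8 vehicle-treated mice r was 0.28.

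The mice fell into sets by the phase of their clock genes, which was used here in place of the time of sacrifice. The clock-gene axis was centred within each group, so a side is relative to the mean of a mouse's own group. The same side need not mean the same phase in both groups. Vehicle replicates 1 to 4 and AIMD replicates 1 to 3 lay on the negative side of the axis, and the other mice on the positive side. Riiad1 ranged from 5.75 to 19.6 FPKM (median 10.6) in the 4 vehicle-treated mice of the negative side and from 2.81 to 6.20 FPKM (median 4.39) in the 4 of the positive side. These ranges overlapped only narrowly. Tex19.1 ranged from 2.40 to 11.9 and from 4.83 to 13.6 FPKM, with wide overlap. AIMD mice stayed below vehicle-treated mice on both sides, at most 0.450 FPKM for Tex19.1 and 0.845 FPKM for Riiad1. With the clock-gene axis in the fit, the SE of the Riiad1 difference went from 0.30 to 0.23 and that of Tex19.1 was 0.29 in both fits. The differences themselves could not move in that fit, since the centred axis has the same mean in both groups.

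All 14 epithelial markers were expressed, summing to 8005 to 12248 FPKM in AIMD and 7387 to 9733 FPKM in vehicle-treated mice. Of these, 3 were called higher (6 without vehicle replicate 2) and 1 lower (2 without AIMD replicate 4), near or below the 19.4% and 16.7% of all genes tested. Markers of reproductive tissue were nearly absent. Of 12 spermatid and spermatocyte markers, 11 were at 0 in all mice and their sum never passed 0.0506 FPKM, and of 8 epididymal markers 6 were at 0 in all mice and their sum never passed 0.252 FPKM. Neuron and glia markers fell in AIMD mice, in 5 of 5 tested, and smooth muscle markers in 1 of 8 (3 without vehicle replicate 3 or 5), beside 16.7% of all genes tested. The 8 smooth muscle markers summed to 215 to 820 FPKM in AIMD and 521 to 3046 FPKM in vehicle-treated mice, and the 8 neuron and glia markers to 2.85 to 5.15 and 4.00 to 68.6 FPKM, with overlap in both sums. Vehicle replicate 3 had muscle and nerve sums within the AIMD range, 521 and 4.00 FPKM, and 9.59 FPKM of Tex19.1 and 9.30 FPKM of Riiad1. Vehicle replicate 8, the shallowest library, had the highest sums and the lowest Riiad1 level. Without it the differences were -3.01 for Tex19.1 and -3.27 for Riiad1. These are single mice, and whether the levels of muscle and nerve markers bear on the difference of either gene was not tested.

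Of 8 tested T cell and innate lymphoid markers none was called either way, nor was any at an unadjusted p under 0.05 in limma or by voom or the exact rank-sum test. Of 8 B and plasma cell markers 3 were lower (7 without AIMD replicate 7), beside 16.7% of all genes tested, and of 7 myeloid markers 3 were higher, beside 19.4%. The goblet, tuft, enteroendocrine, stem cell and stroma lists, with 8, 3, 5, 5 and 8 genes tested, each had 1 gene higher, beside 19.4% of all genes tested. The goblet and stem cell lists each had 1 gene lower, beside 16.7%. These counts of 1 changed when single mice were left out. Among vehicle-treated mice, Riiad1 was lower where the T cell and innate lymphoid score was higher (r = -0.78, exact permutation p = 0.0225, adjusted p = 0.157 over 7 relations, and rho = -0.71, exact permutation p = 0.0576, adjusted p = 0.403). This did not pass the correction, and r was -0.47 without the 2 mice farthest from the median. The summed lymphoid markers also separated by clock side, at 24.2 to 34.6 FPKM in vehicle replicates 1 to 4 and 36.0 to 55.3 FPKM in replicates 5 to 8, as Riiad1 nearly did, and 4 mice a side are too few for a value of r within sides. The other relations of either gene to epithelial, muscle or lymphoid scores had adjusted p of at least 0.666 by exact permutation.

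Genes next to the members were called at shares near those of all genes tested. Among the 6 nearest protein-coding genes on each side, 16 of the 23 found in the table were tested, of which 4 were called higher (19.4% of all genes tested were) and 2 lower (16.7% of all). Their differences ran from -0.79 to 1.71 with a median of 0.18, beside 0.01 for all genes tested. The groups did not overlap in 1 of these 16 neighbours, as in 8.56% of all genes tested, and 36.1% of all genes tested were called in either direction.

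Around Tex19.1, Slc16a3, a lactate exporter, averaged 2.41 ± 0.74 FPKM in AIMD and 0.367 ± 0.098 FPKM in vehicle-treated mice (log2 change 1.71), higher without overlap, as 5.27% of all genes tested were. Cd7, a lymphocyte surface protein, rose by 0.99 (limma adjusted p = 0.0016), and Sectm1b, which encodes a ligand of Cd7, fell by 0.40 (adjusted p = 0.0282). The Sectm1b call was lost without any of 6 mice taken singly (AIMD replicates 2, 5, 6 and 7, vehicle replicates 3 and 6, adjusted p 0.0515 to 0.062) and under quantile normalization (0.125). The nearest active genes, Sectm1a at 0.21, Ogfod3 at -0.20 and Hexdc at 0.05, did not pass the test. Uts2r, 11951 bases downstream, was at 0 in all mice. Csnk1d, Narf and Foxk2 differed by 0.29, 0.43 and 0.27 and did not pass, although Narf did without vehicle replicate 7 (adjusted p = 0.0391) and with the clock-gene axis in the fit (0.0091), and Foxk2 without AIMD replicate 4 (0.0363). Cybc1 was not found in the table under this symbol.

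Around Riiad1, the nearest neighbour outside its own span, Mrpl9 of the mitochondrial ribosome, lies 13852 bases away and averaged 33.5 ± 5.2 FPKM in AIMD and 40.5 ± 9.3 FPKM in vehicle-treated mice. Its difference of -0.25 did not pass (limma adjusted p = 0.236), but did without vehicle replicate 8 (0.0342). Tuft1 and Cgn, the latter a tight junction protein, rose by 0.41 and 0.45 (adjusted p = 0.0122 and 0.0186), and Selenbp2 fell by 0.77 (0.0120). Snx27 differed by 0.15 and did not pass. Lingo4 differed by -0.79 (0.0613) and passed without AIMD replicate 4 or vehicle replicate 2 or 4, taken singly (0.0202 to 0.0423), with the clock-gene axis in the fit (0.0152) and by voom (0.0431). C2cd4d, Tdrkh, Oaz3, Celf3 and Gm10972 were too low to be tested.

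**Figure D3:**
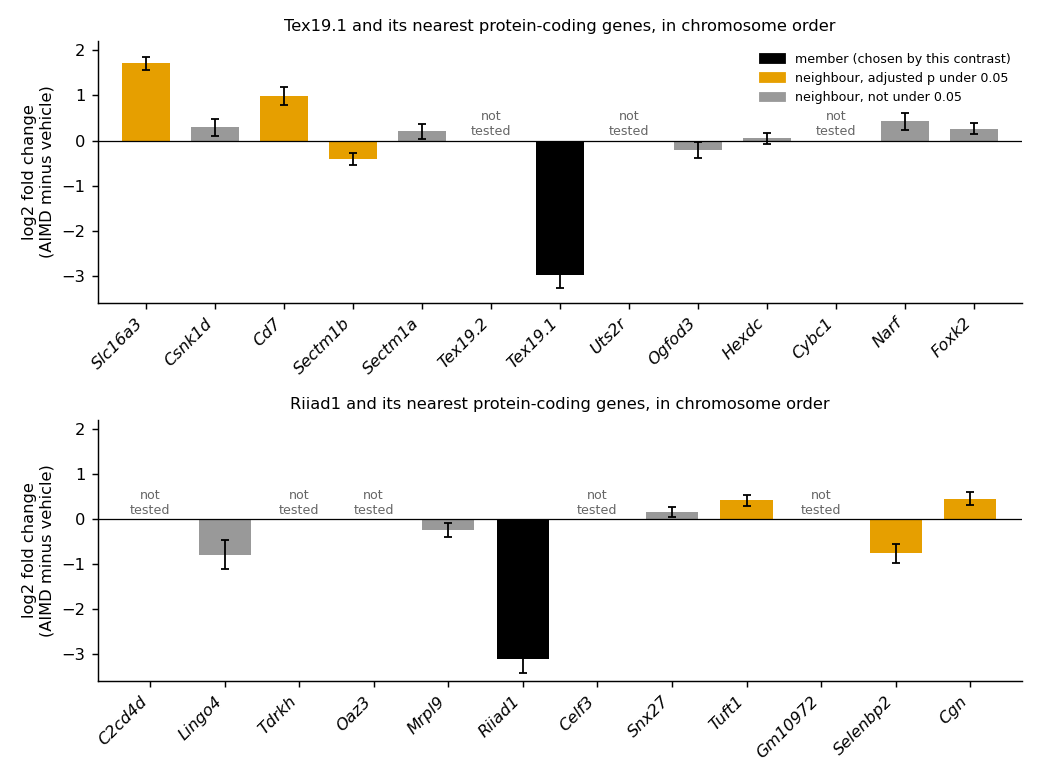
Log2 fold change (AIMD minus vehicle, bars show the SE) of each member and of the 6 nearest protein-coding genes on either side that are reported, in chromosome order and not to distance. The members, at -2.99 and -3.11, stand between neighbours that range from -0.79 to 1.71.

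Other genes of the germ-cell programme were nearly silent in both groups. Of 40 germ-cell genes known to be repressed by promoter methylation, which is the class Tex19.1 belongs to, 39 stayed under 1 FPKM in every mouse and 10 were at 0 in all mice. Tdrd1, a Tudor-domain protein of the piRNA pathway, was the 1 gene tested and averaged 0.876 ± 0.190 FPKM in AIMD and 0.993 ± 0.458 FPKM in vehicle-treated mice (log2 change -0.06, limma adjusted p = 0.809). With no filter on low values, 1700123I01Rik of this list, named after its values were seen, was called higher, at 0.341 FPKM in AIMD and 0.0955 FPKM in vehicle-treated mice. Among the other untested genes of this list, some means were lower in AIMD and some higher. Of 20 genes of pluripotency and the early embryo, 17 were under 1 FPKM in all mice. The 2 tested, Tfcp2l1 and Klf4, are transcription factors that also act in epithelia. They rose by 1.07 (limma adjusted p = 0.0119) and 0.60 (0.0121), beside 19.4% of all genes tested called higher.

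**Figure D4:**
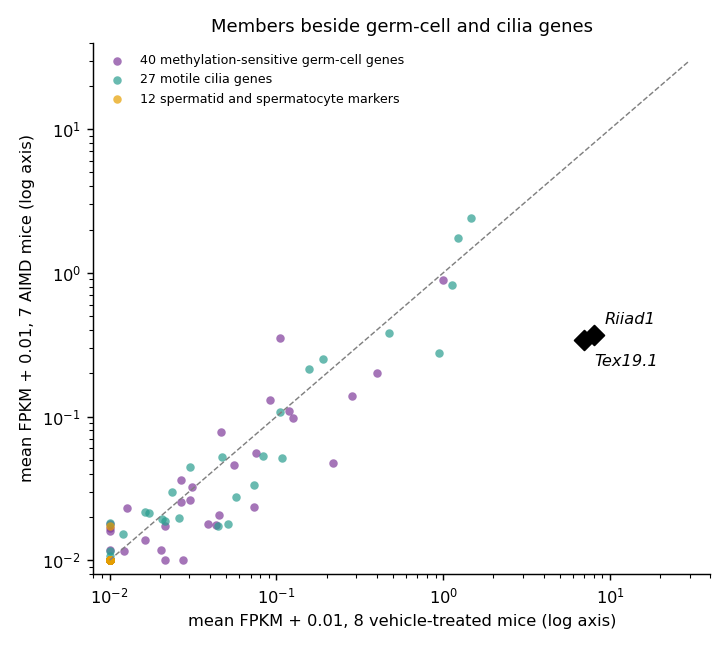
Mean FPKM in AIMD against vehicle-treated mice for the members, 40 methylation-sensitive germ-cell genes, 27 motile cilia genes and 12 spermatid and spermatocyte markers, with 0.01 added and both axes on a log scale. The dashed line marks equal levels. The members lie apart, at 7.00 and 8.03 FPKM in vehicle-treated mice.

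Genes that keep germ-cell genes silent were mostly expressed, 24 of 25 being tested, with 7 higher and 2 lower, beside 19.4% and 16.7% of all genes tested, and a median of 0.07. Dnmt1, which maintains DNA methylation, fell by 0.60 from 3.60 ± 0.71 to 2.19 ± 0.38 FPKM (limma adjusted p = 0.0016). It was lower without overlap, as 3.30% of all genes tested were. Atf7ip, a partner of the histone methyltransferase SETDB1, fell by 0.50 (0.0055). Both are named because they were the 2 called lower, after their values were seen. Higher were Tfdp1, the partner of E2F factors (1.58), Rybp (1.32) and Max (0.96) of the Polycomb complex that contains E2F6, and Zbtb33 (0.94), a reader of methylated DNA, each at an adjusted p of at most 0.0048. Of 9 genes of DNA demethylation 8 were tested, none was higher in limma (1 at an unadjusted p under 0.05, none by voom or the rank-sum test, and 1 without AIMD replicate 4 or vehicle replicate 1 or 2), and Gadd45a fell by 1.00 (0.0033), with a median of -0.03. Whether any of these bears on Tex19.1 was not tested.

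Ubr2, the known partner of the Tex19.1 protein, averaged 4.09 FPKM in AIMD and 3.89 FPKM in vehicle-treated mice (log2 change 0.06, limma adjusted p = 0.614). All 10 genes of the N-end rule list were tested, 2 were higher, near the 19.4% of all genes tested, none was lower in limma, at an unadjusted p under 0.05, by voom or by the rank-sum test, and the median was -0.03. Ubr7 rose by 0.38 (adjusted p = 0.0156) and Ubr1 by 0.43 (0.0316). The Ubr1 call was lost without any of 6 mice taken singly (AIMD replicates 5, 6 and 7, vehicle replicates 1, 4 and 6, adjusted p 0.055 to 0.0691), with no filter on low values (0.062) and in the exact rank-sum test (0.0574).

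Around Riiad1, 8 of 9 protein kinase A genes were tested, with none higher in limma (1 at an unadjusted p under 0.05, 1 by voom, none by the rank-sum test), 3 lower (5 without vehicle replicate 1), beside 16.7% of all genes tested, and a median of -0.37. Pkig, an inhibitor of the kinase, fell by 1.22 from 32.1 ± 5.9 to 13.9 ± 4.5 FPKM (limma adjusted p = 8.3e-05). The regulatory subunit gene Prkar1a fell by 0.45 from 46.7 ± 6.8 to 34.0 ± 2.4 FPKM (0.0034). Both were lower without overlap, as 3.30% of all genes tested were. Pkia, another inhibitor, fell by 0.78 (0.0109). The regulatory subunits Prkar2a (-0.30) and Prkar1b (-0.42), the catalytic subunits Prkaca (0.25) and Prkacb (0.50) and the inhibitor Pkib (-0.32, adjusted p = 0.0507) did not pass. The regulatory subunit gene Prkar2b was too low to be tested, at 0.374 FPKM in AIMD and 0.592 FPKM in vehicle-treated mice. Prkacb passed without vehicle replicate 8 (0.0094), with the clock-gene axis in the fit (0.0182) and by voom (0.0489). Prkar2a passed without vehicle replicate 1 (0.0434), and Prkar1b without vehicle replicate 3 (0.046). Pkib passed without vehicle replicate 1 or 5 (0.0222 and 0.0384), with the clock-gene axis (0.0444), by voom (0.0147) and by the exact rank-sum test (0.0431).

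Of 12 proteins with the same type of docking domain, 6 were under 1 FPKM in all mice and 3 were tested. Spa17, a sperm autoantigen also found in ciliated cells, fell by 0.83 from 3.37 ± 0.84 to 1.70 ± 0.62 FPKM (limma adjusted p = 0.0016). It was the 1 gene of these called lower, beside 16.7% of all genes tested. Dpy30, a subunit of histone methyltransferase complexes, differed by -0.14 (0.685), and Prkar2a was given above. Of 15 A-kinase anchoring proteins 9 were tested, with Akap10 (0.59, adjusted p = 0.0026) and Akap8l (0.36, 0.032) higher, Akap12 (-0.70, 0.0251) lower, near the 19.4% and 16.7% of all genes tested, and a median of -0.14. The Akap8l call was lost without any of 6 mice taken singly (AIMD replicates 1, 2, 5 and 6, vehicle replicates 1 and 6, adjusted p 0.0504 to 0.0682) or with no filter on low values (0.053), and the Akap12 call without AIMD replicate 4 (0.0515) or with no filter (0.0564). Of 27 genes of motile cilia 23 were under 1 FPKM in all mice, and 4 were tested, with a median of 0.06. Of these 4, the radial spoke genes Rsph3a rose by 0.57 (limma adjusted p = 0.005) and Rsph9 fell by 0.79 (0.0196), beside 19.4% and 16.7% of all genes tested.

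**Figure D5:**
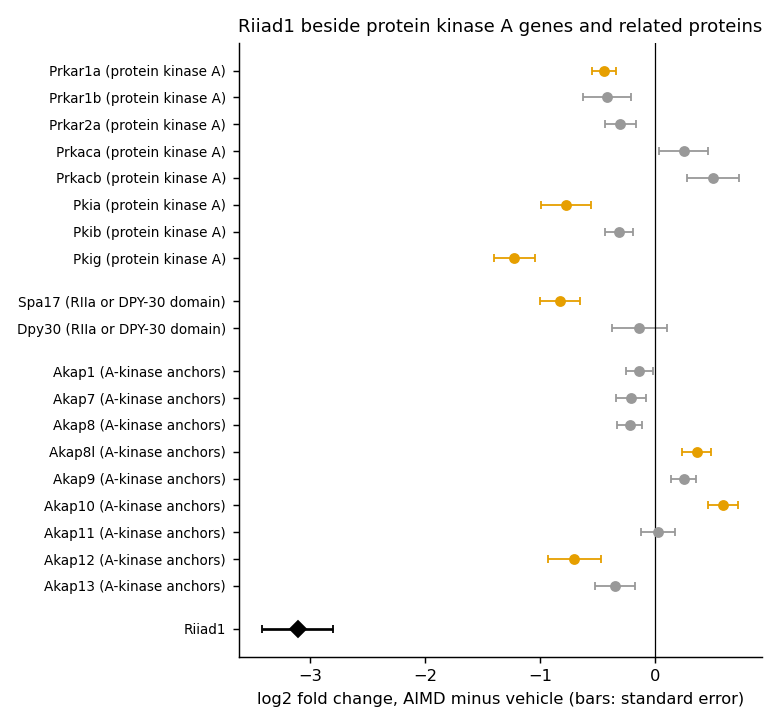
Log2 fold change (AIMD minus vehicle, bars show the SE) of tested protein kinase A genes, proteins with an RIIa or DPY-30 domain and A-kinase anchoring proteins, with Riiad1 below. Orange points have an adjusted p under 0.05 and grey ones do not. The next lowest after Riiad1 at -3.11 is Pkig at -1.22.

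Likeness of pattern was measured by Pearson's r of log2(FPKM + 0.5) and is given as a description. Predicted genes with a symbol of Gm and a number were left out of the genes listed as most alike. The order numbers count all genes tested. Over all 15 mice, which share the group difference and thus raise r for any gene that moved with it, Tex19.1 was most like Tmem161a (0.97), Tmco6 (0.97), Fam134a (0.97), Usf1 (0.96) and Cyp4f15 (0.96), and Riiad1 was most like Gstt1, Pbld2, Slc15a4, Sat2 and Fgfrl1 (0.95 each). All of these were lower in AIMD without overlap (3.30% of all genes tested were), which picking them by r over both groups favoured. Cyp4f15, a fatty acid hydroxylase, stood at 8.58 ± 1.65 FPKM in vehicle-treated and 0.303 ± 0.187 FPKM in AIMD mice, and Gstt1, a glutathione transferase, at 22.6 ± 9.6 and 3.38 ± 0.99 FPKM. Riiad1 was number 108 in the order for Tex19.1, with r = 0.90.

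Over the 8 vehicle-treated mice alone, the genes most like Tex19.1 were Tmco6 (0.97), Cyp4f15 (0.93), Bst2 (0.93), Miip (0.93) and Ddah2 (0.93), which were all lower in AIMD without overlap, as 3.30% of all genes tested were. Tmco6 and Cyp4f15 were among the 5 nearest to Tex19.1 both over all mice and within the vehicle group. Among the 5 genes most like Riiad1 within that group were Polb (0.99), Timmdc1 (0.98), Polr2i (0.98) and Rpl7l1 (0.98). In AIMD mice these differed by -0.29, 0.08, -0.40 and 0.18, with overlap between the groups and limma adjusted p of 0.0937, 0.749, 0.268 and 0.386. Polb passed without vehicle replicate 8 (0.0422) and with the clock-gene axis in the fit (0.0197). Riiad1 was number 2839 in the order for Tex19.1 in the vehicle group, and Tex19.1 number 4517 in that for Riiad1.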

How the data were processed

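Cecal RNA of 7 AIMD and 8 vehicle-treated mice was sequenced from poly-A selected, stranded libraries with 50-base reads. Groups and replicate numbers came from the sample titles. The authors mapped reads to GRCm38 with STAR, used featureCounts with a GENCODE annotation for counting, and deposited 1 FPKM value per gene and mouse, in 45808 rows, of which 4 with a repeated symbol were left out. How counts became FPKM is not given in the sources used here. Whole reads (within 0.01) were recovered from the FPKM of 24270 of 24279 genes above 0 and gave each mouse's depth.

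Size factors (median of ratios) were taken out of the FPKM, which were tested as log2(FPKM + 0.5) with limma 3.58.1 (R 4.3.3; lmFit, eBayes with trend) in genes of at least 0.5 FPKM in at least 7 mice, with Benjamini-Hochberg adjustment over 11983 genes, a threshold of 0.05 and two-sided p-values. The size factors ran from 1.01014 to 1.01041, so taking them out or leaving them in changed little between mice. No time of sacrifice entered the fit. Relations used exact permutation. The members and gene lists were chosen with earlier results of these data known. Named are the members, Tex19.2, Ubr2, protein kinase A genes, the 6 nearest protein-coding genes on each side, up to 4 called genes of largest change per list (marker lists as counts and sums only), and the 5 genes of highest r (predicted Gm genes left out). Dnmt1, Atf7ip, Dpy30 and Tdrd1 were added after their values were seen. Of the genes this rule names, 2 are not reported here. Mice are separate animals, but shared cages are unknown. Positions came from GENCODE M21 and promoter sequences from RefSeq (GRCm38.p6). Alternatives were other pseudocounts (0.1 and 1), scalings, filters, a clock-gene covariate, a replicate block, an exact rank-sum test, leaving out each mouse and, added after seeing the data, voom on the recovered reads. Fits were tested on simulated data. Python 3.11.15, numpy 2.4.6, pandas 2.3.3, scipy 1.17.1, matplotlib 3.10.9 and biopython 1.88 were used.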

Additional observations from a re-analysis of the deposited data

Results flagged for a closer look

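A mouse stood apart from its group, by the gap to its nearest neighbour relative to the range of the group, in 11 of 128 groups of values. These are each gene named in each treatment group. The rule flags about 1 in 20 groups of independent, normally distributed values, which FPKM of many genes in the same mice are not. Vehicle replicate 8 alone gave 5 of the 11 flags. Riiad1 in AIMD replicate 1 was at 0.845 FPKM, with the next AIMD mouse at 0.374 FPKM. In vehicle replicate 8, Tfcp2l1 was highest at 33.6 FPKM, Prkar1a at 62.3 FPKM, Akap12 at 3.33 FPKM, Rsph9 at 2.71 FPKM and Prkacb at 5.63 FPKM. In AIMD replicate 4, Max was highest at 238 FPKM and Gadd45a at 71.5 FPKM. In vehicle replicate 1, Gstt1 was highest at 43.1 FPKM and Slc15a4 at 12.3 FPKM. Both were named for their likeness to Riiad1, which was itself highest in that mouse among vehicle-treated mice. Akap8l was lowest in vehicle replicate 5 at 1.31 FPKM.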

How the results depend on the processing

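The log2 difference of both members was below 0 in every alternative run, which restates how they were chosen. The size of this difference followed the treatment of low values. With a pseudocount of 0.1 it was -3.89 for Tex19.1 and -4.00 for Riiad1, and with voom on recovered reads, added after seeing the data, -4.15 and -4.26. Leaving out each mouse in turn gave -3.16 to -2.83 for Tex19.1, -3.27 to -2.90 for Riiad1, 3555 to 4643 genes called, and r between them in vehicle-treated mice of -0.07 to 0.48. A replicate block over replicates 1 to 7 gave -3.01, -3.27 and 4651 genes called beside 4320, and the clock-gene covariate gave 5109, the highest count of any alternative run. That covariate was centred within each group and could not move the difference of either member. The replicate numbers did not pair the mice: same-numbered mice had correlations of -0.35 to 0.43, with 2 of 7 over 0.1, and 1 of 7 AIMD mice correlated best with its own number. Of the 62 other genes tested for changed calls, 14 crossed the threshold under at least 1 of 25 alternatives (26 calls lost and 30 gained in 1543 values), and none of those called turned direction. With 2 to 16 reads per AIMD mouse, depth limits how low the members can be placed.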
